A study of Liolophura hirtosa with 16 samples.

Results

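Calcium-deposited radula teeth were compared with immature radula teeth of the chiton Acanthopleura hirtosa, which the labels list as Liolophura hirtosa. The comparison used the 4 arrays titled as calcium and the 4 titled as immature, 8 of the 16 arrays of the series. The other arrays were 4 of iron-deposited teeth and 4 of foot muscle, and their levels are given beside the members of the comparison. All RNA came from 12 wild adult animals. Each array carried Cy5-labelled RNA of 1 pool, made in equal parts from 3 animals, so that differences between single animals were averaged within a pool. The 16 pools drew on these 12 animals, so that animals were shared between pools. Which pools share animals is not stated, and the main model treated the arrays as independent. The labels call the radula material radula sac tissue, and each section therefore held whatever cells surrounded the teeth at that stage. In such bulk RNA, fewer cells of a type and less RNA per cell cannot be told apart.

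The radula is the feeding ribbon of molluscs, and in chitons it carries rows of teeth hardened with mineral. Rows are formed without pause at one end and move forward as older rows wear away, so that position along the ribbon orders the rows by age. In chitons, a soft organic tooth is laid down first, iron mineral that becomes magnetite then hardens the working edge, and a calcium mineral fills the core of the tooth in the last stage. Immature and calcium-deposited teeth are thus the youngest and the oldest of the sections sampled, and the comparison spans the whole course from an unmineralized to a finished tooth.

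The array design had 2240 probes, each 35 to 40 nt long. They were drawn from 493 sequences, 109 contigs and 384 single clones. The files paired 0 probes with a gene name, so that each sequence is given under its deposited name and neither function nor cell type markers could be checked. A level is the log2 intensity after background correction and quantile scaling, averaged over the probes of a sequence. Levels of different sequences are not set against each other, since probes differ in brightness for the same amount of RNA. The files hold no background measurement, so that the dimmest levels cannot be told from background and folds against them are smaller than the true change in RNA, by how much is not known.

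The deposited sources disagreed on which array is which for 4 of these 8. Immature replicates 2 and 4 in the authors' value table held the intensities of the scanner files recorded for calcium replicates 2 and 4, and the reverse. Array identity was taken here from the value table. Counts of calls and named sequences are also given without the 4 disputed arrays, which leaves 2 immature and 2 calcium arrays. With the scanner files as recorded, each group of 4 mixes 2 columns of either tissue of the value table, and limma called 0 sequences, with 0 at an unadjusted p under 0.05 and 1 probe at that level. With the value table's columns, arrays of a tissue correlated across the 493 sequences at a Pearson r of 0.985 to 0.995 for immature and 0.973 to 0.993 for calcium, and arrays of the one tissue with the other at 0.699 to 0.743. Sequences are not independent replicates, and these values are a description.

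Because no names exist, probe sequences are the means by which these transcripts can be identified. The brightest probe over all 16 arrays is shown for sequences that carry the patterns described next, in lower case, with positions counted in bases from the start of the deposited sequence. Lower in calcium-deposited teeth were
Contig[0054], bases 153 to 187: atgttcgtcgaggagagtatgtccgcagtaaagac
Contig[0010], bases 1258 to 1292: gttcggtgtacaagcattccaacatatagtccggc
Contig[0067], bases 25 to 59: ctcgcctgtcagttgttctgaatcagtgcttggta
Contig[0122], bases 369 to 403: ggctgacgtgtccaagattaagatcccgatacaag
PlateD-E2-5-SMART, bases 529 to 563: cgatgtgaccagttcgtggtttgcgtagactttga

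Higher in calcium-deposited teeth were the following, again with the brightest probe of each sequence.
Contig[0288], bases 281 to 315: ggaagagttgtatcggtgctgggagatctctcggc
PlateD-E11-5-SMART, bases 246 to 282: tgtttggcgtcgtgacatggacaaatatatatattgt
Contig[0222], bases 670 to 704: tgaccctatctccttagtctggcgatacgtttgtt
Contig[0069], bases 649 to 683: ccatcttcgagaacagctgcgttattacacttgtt
PlateD-G3-5-SMART, bases 273 to 307: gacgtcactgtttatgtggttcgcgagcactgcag

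Many of the measured sequences differed between the youngest and the oldest teeth, and the falls were larger than the rises. At the level of sequences, limma called 183 of 493 (37.1%) at an adjusted p under 0.05, 118 of them higher (23.9%) and 65 lower (13.2%) in calcium-deposited teeth. Sequences called lower had a median fold of 2.38 and those called higher a median fold of 1.55. Differences over 2-fold were found for 36 of the lower and 29 of the higher sequences, those over 4-fold for 19 and 11, and those over 8-fold for 8 and 3. Without the disputed arrays limma called 156 sequences, 93 higher and 63 lower, of which 29 and 38 were over 2-fold. Under cyclic loess scaling 80 sequences were called higher and 83 lower. Of the 118 and 65, 80 and 65 were called there in the same direction and 1, Contig[0099], in the other. Contig[0099] was at 12.88 ± 0.13 (SD, n = 4) in immature and 13.67 ± 0.12 (SD, n = 4) in calcium arrays under quantile scaling, and it was singled out after its values were seen.

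The 4 calcium arrays all lay above the 4 immature arrays in 114 of the 118 and all below them in 65 of the 65, against 122 (24.7%) and 68 (13.8%) of all 493 sequences. Of the 310 uncalled sequences, 11 also did not overlap. The calls were made on these same arrays, so that this separation describes them and gives them no separate support.

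Sequences that were not called were mostly bounded tightly. Of these 310, 295 had a 95% interval of the log2 difference that lay within 0.5 of zero, a fold of 1.41, and 0 had an interval that reached past 2-fold. With the disputed arrays left out, 267 of 337 uncalled sequences had such an interval and 12 had one that reached past 2-fold. The intervals describe signal on the array, and for dim probes the change in RNA may have been larger.

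**Figure D1:**
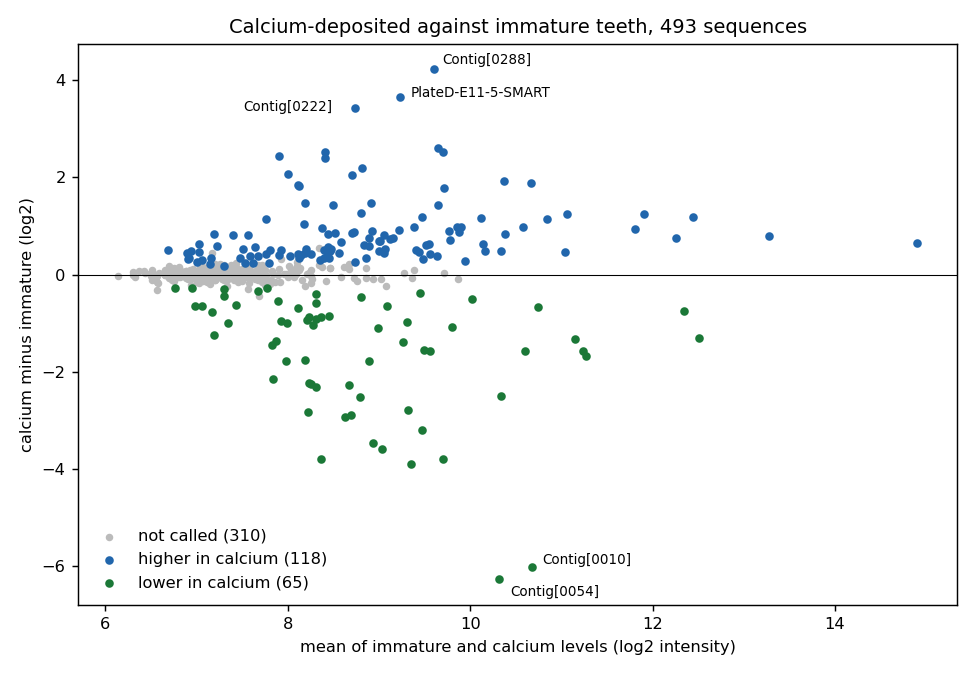
Each point is 1 of 493 sequences, with the mean of its immature and calcium levels (log2 intensity) on the x axis and the calcium minus immature difference (log2) on the y axis. The 118 sequences called higher reach a fold of 18.7 and the 65 called lower a fold of 77.4, and most of the 310 that were not called lie at low levels.

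The deepest falls belonged to a pair of contigs that were among the strong signals of immature teeth. In calcium-deposited teeth both were at low levels, close to those of foot muscle. Contig[0054] was at 13.24, 13.70, 13.50 and 13.37 in immature replicates 1 to 4 and at 7.47, 7.03, 7.16 and 7.06 in calcium replicates 1 to 4. It fell by 6.27 on the log2 scale (SE 0.11, 95% interval -6.51 to -6.04, limma adjusted p = 9.98e-18), a 77.4-fold difference, and 65.4-fold without the disputed arrays. The 8 arrays left a gap of more than 5 log2 units between the tissues. Contig[0010] was at 13.60, 13.53, 13.95 and 13.66 in immature and at 8.05, 7.44, 7.60 and 7.54 in calcium replicates. It was 65.2-fold lower (SE 0.17 on the log2 scale, limma adjusted p = 2.37e-15), and 61.7-fold lower without the disputed arrays. These folds depend on how background is handled. With no background correction they were 44.5 for Contig[0054] and 41.0 for Contig[0010], and with a normexp offset of 16 they were 102 and 82.8. Calcium replicate 1 was the highest of the calcium arrays for both contigs.

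The same fall can be read from the authors' deposited ratios, in which 1 is the mean spot of an array. The probe of Contig[0054] shown above was deposited at 25.4, 36.2, 33.1 and 31.1 in immature and at 0.522, 0.467, 0.241 and 0.277 in calcium replicates 1 to 4. That of Contig[0010] was deposited at 46.9, 69.6, 70.3 and 58.4 in immature and at 1.12, 0.680, 0.531 and 0.613 in calcium replicates. In every immature array these spots were far brighter than the mean spot, and in calcium arrays all but 1 value were below it. The median spots of these calcium arrays were at 0.457, 0.456, 0.247 and 0.304, so that a value below the mean spot can still be above the median.

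Further sequences fell by 7.37- to 15.0-fold. All their probes were called lower, since named sequences were chosen to have every probe called in 1 direction and arrays without overlap. Contig[0067] was at 11.17, 11.32, 11.43 and 11.29 in immature and 7.57, 7.48, 7.16 and 7.38 in calcium replicates, a 15.0-fold fall (limma adjusted p = 4.19e-16). Contig[0122] was at 11.54, 11.56, 11.68 and 11.65 in immature and 7.82, 7.86, 7.89 and 7.66 in calcium replicates, a 13.9-fold fall (limma adjusted p = 7.77e-16). PlateD-E2-5-SMART was at 11.19, 11.07, 11.15 and 10.90 in immature and 8.02, 7.91, 7.73 and 7.84 in calcium replicates, a 9.20-fold fall (limma adjusted p = 4.19e-16). In each of these sequences the 4 arrays of one tissue agreed within 0.5 log2 units and the tissues lay more than 2.5 apart. Contig[0028] was 13.9-fold lower, Contig[0147] 12.1-fold, Contig[0148] 7.64-fold and Plate-C-E7-5-SMART 7.37-fold. The clone plateD-C11-5SMART-primer fell by 3.46 on the log2 scale. Without the disputed arrays, the 10 named falls ranged from 7.56- to 65.4-fold, and limma called each of them (adjusted p of 3.17e-12 to 1.08e-08). With no background correction the 10 falls ranged from 4.44- to 44.5-fold, and 8 of the 10 moved by over 1.5 times. Contig[0028] moved most, to 6.89-fold. With a normexp offset of 16 the 10 falls ranged from 10.3- to 102-fold, and 1, Contig[0028], moved by over 1.5 times, to 22.7-fold.

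Averaged over probes, all 10 of these sequences were close in calcium-deposited teeth to foot muscle, a tissue that makes no teeth. Their calcium means differed from their foot muscle means by -0.29 to 0.18 on the log2 scale. Both were low, at 6.46 to 7.88 in calcium and 6.53 to 7.80 in foot muscle arrays. The 310 uncalled sequences had medians of 7.22 and 7.39 there. Levels this low may be background in both tissues, so that closeness does not show equal amounts of RNA. Some brighter single probes differed more, in either direction. The probe of plateD-C11-5SMART-primer at bases 415 to 449 was at 8.96 in calcium and 9.71 in foot muscle arrays. That of PlateD-E2-5-SMART at bases 529 to 563 was at 9.12 and 8.51. In Contig[0010], the probe at bases 1258 to 1292 was at 8.78 and 8.18, and that at bases 873 to 907 at 8.31 and 8.85. Levels in iron-deposited teeth, the stage between, separated the 10 sequences into 2 patterns. The comparisons with iron arrays share the immature or the calcium arrays with the main one, and they called 29.6% of sequences for iron against immature (16.4% higher, 13.2% lower) and 33.3% for calcium against iron (19.7% higher, 13.6% lower). The levels that follow are given tissue by tissue for that reason.

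For 6 of the 10, levels in iron-deposited teeth were already close to those in calcium-deposited teeth. Contig[0054] was at 7.29 ± 0.15 (SD, n = 4) in iron and 7.18 ± 0.20 in calcium arrays, Contig[0010] at 7.76 ± 0.18 and 7.66 ± 0.27, and Contig[0067] at 7.27 ± 0.14 and 7.40 ± 0.18. Contig[0028], plateD-C11-5SMART-primer and Plate-C-E7-5-SMART likewise differed by at most 0.16 on the log2 scale between iron and calcium. None of these 6 was called between calcium and iron, with limma adjusted p values of 0.0868 to 0.911, which does not show that their levels were equal. Levels this low may be background in both tissues, which was not tested. The brightest probe of Plate-C-E7-5-SMART, at bases 3 to 37, did not share the pattern of its sequence mean. It was at 10.10 ± 0.09 (SD, n = 4) in immature, 9.12 ± 0.17 in iron, 9.57 ± 0.27 in calcium and 10.50 ± 0.22 in foot muscle arrays.

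The other 4 were held part of the way through iron deposition. PlateD-E2-5-SMART was at 11.08 ± 0.13 (SD, n = 4) in immature, 10.30 ± 0.10 in iron and 7.88 ± 0.12 in calcium arrays, so that most of its fall lay between iron and calcium. Contig[0122] stepped from 11.61 ± 0.07 to 9.91 ± 0.16 and 7.81 ± 0.10. Contig[0148] went from 10.09 ± 0.24 to 8.67 ± 0.19 and 7.16 ± 0.04, and Contig[0147] from 10.83 ± 0.07 to 8.29 ± 0.13 and 7.24 ± 0.19. Each of these 4 was called lower both in iron than in immature and in calcium than in iron arrays, with limma adjusted p values of at most 2.31e-07. Without the disputed arrays, the same 6 were not called between calcium and iron (limma adjusted p of 0.372 to 0.958), and the same 4 were called lower in both steps (limma adjusted p of at most 1.26e-05).

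**Figure D2:**
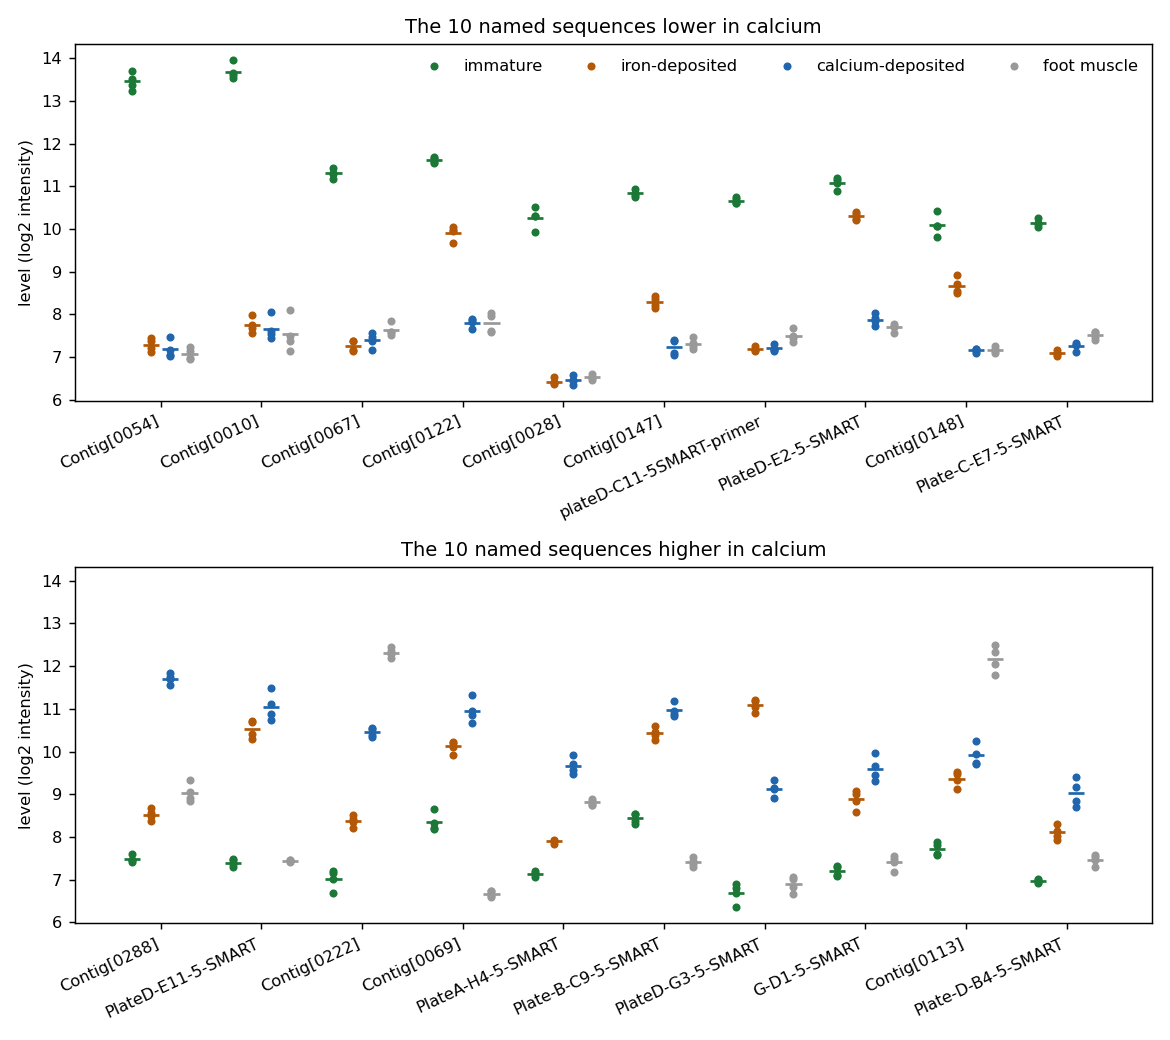
Points are single arrays (n = 4 per tissue) and short lines are tissue means of the level (log2 intensity) for the named sequences, those lower in calcium in the upper and those higher in calcium in the lower panel. The choice of named sequences required immature arrays above calcium arrays without overlap in the upper panel and below them in the lower panel. Foot muscle means are close to the low calcium means in the upper panel and range from 6.68 to 12.3 in the lower.

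The largest rise was that of Contig[0288], followed by the clone PlateD-E11-5-SMART and Contig[0222]. Contig[0288] was at 7.47, 7.60, 7.42 and 7.46 in immature and at 11.75, 11.83, 11.70 and 11.55 in calcium replicates 1 to 4. It rose 18.7-fold (log2 4.22, SE 0.10, 95% interval 4.01 to 4.43, limma adjusted p = 2.67e-16), and 19.1-fold without the disputed arrays. Its probe shown above was deposited at ratios of 0.492, 0.411, 0.370 and 0.404 in immature and 11.8, 12.7, 12.7 and 10.1 in calcium replicates, below the mean spot of every immature array and above that of every calcium array. Its immature ratios were still above the median spots of their arrays, at 0.417, 0.303, 0.272 and 0.306.

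PlateD-E11-5-SMART was at 7.48, 7.30, 7.47 and 7.36 in immature and 10.74, 10.88, 11.48 and 11.11 in calcium replicates, a 12.5-fold rise (limma adjusted p = 3.37e-14). Contig[0222] was at 6.70, 7.22, 7.02 and 7.15 in immature and 10.53, 10.35, 10.40 and 10.54 in calcium replicates, a 10.8-fold rise (limma adjusted p = 3.14e-15). Contig[0069] was at 8.33, 8.20, 8.66 and 8.18 in immature and 10.66, 10.85, 11.32 and 10.94 in calcium replicates, a 6.07-fold rise (limma adjusted p = 4.35e-12). For PlateD-E11-5-SMART and Contig[0069], calcium replicate 3 was the highest calcium array, and the tissues did not overlap, which the choice of named sequences required. The remaining named rises were 5.78-fold for PlateA-H4-5-SMART, 5.75-fold for Plate-B-C9-5-SMART, 5.46-fold for PlateD-G3-5-SMART, 5.25-fold for G-D1-5-SMART, 4.58-fold for Contig[0113] and 4.17-fold for Plate-D-B4-5-SMART. Without the disputed arrays, the 10 named rises ranged from 4.31- to 19.1-fold, and limma called each (adjusted p of 9.14e-11 to 3.39e-06). With no background correction they ranged from 2.94- to 12.1-fold, and 4 of the 10 moved by over 1.5 times, among them Contig[0222] to 6.23-fold. With a normexp offset of 16 the 10 rises ranged from 5.35- to 23.5-fold, and 0 moved by over 1.5 times.

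The rises ended at levels that differed from those of foot muscle by -2.26 to 4.27 on the log2 scale. Contig[0222] and Contig[0113] were higher in foot muscle than in calcium-deposited teeth, at 12.32 ± 0.11 (SD, n = 4) against 10.46 ± 0.10 and at 12.18 ± 0.31 against 9.91 ± 0.25. Contig[0288] and PlateA-H4-5-SMART had intermediate levels in foot muscle, 9.04 ± 0.22 and 8.81 ± 0.07, above their immature and below their calcium levels. PlateD-E11-5-SMART was at 7.44 ± 0.02 in foot muscle and 7.40 ± 0.09 in immature teeth, and G-D1-5-SMART at 7.41 ± 0.17 and 7.21 ± 0.13. Contig[0069] and Plate-B-C9-5-SMART were lower in foot muscle than in immature teeth, at 6.68 ± 0.07 against 8.34 ± 0.22 and at 7.40 ± 0.10 against 8.44 ± 0.12. Whether muscle cells lay in the calcium section was not tested, since no probe is named as a muscle marker.

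The rises also took different courses through iron deposition. PlateD-E11-5-SMART was at 10.52 ± 0.20 (SD, n = 4) in iron arrays, most of the way to its calcium level of 11.05 ± 0.32, and Plate-B-C9-5-SMART at 10.43 ± 0.14 on the way to 10.96 ± 0.15. Contig[0288] was at 8.53 ± 0.13 in iron against 11.71 ± 0.12 in calcium arrays, so that most of its rise lay in the last step, as did that of PlateA-H4-5-SMART, at 7.90 ± 0.05 in iron against 9.67 ± 0.19 in calcium. Contig[0222] rose by 1.36 on the log2 scale from immature to iron and by 2.08 from iron to calcium. PlateD-G3-5-SMART was the exception among the 10 named rises. It was at 6.36, 6.89, 6.68 and 6.80 in immature, at 11.05, 10.91, 11.20 and 11.18 in iron and at 9.13, 8.91, 9.34 and 9.15 in calcium replicates, and it was 1.95 lower on the log2 scale in calcium than in iron (limma adjusted p = 3.30e-10). Without the disputed arrays that difference was -1.84 (limma adjusted p = 1.56e-07), and the other 9 were called higher in calcium than in iron (limma adjusted p of 4.06e-10 to 0.0249).

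Summed over their probes, the named sequences took up very different shares of the light collected from an array. The 48 probes of the 10 sequences that fell, 2.14% of all probes, gave 13.1%, 16.4%, 18.0% and 15.9% of the summed foreground in immature replicates 1 to 4 and 1.12%, 1.04%, 0.583% and 0.753% in calcium replicates. Contig[0010] alone gave 6.18% ± 1.25 (SD, n = 4) in immature and 0.103% ± 0.030 in calcium arrays, and Contig[0054] 3.60% ± 0.70 and 0.0608% ± 0.022. The 46 probes of the 10 sequences that rose gave 0.763% ± 0.10 in immature, 3.49% ± 0.40 in iron, 6.12% ± 1.2 in calcium and 3.86% ± 0.16 in foot muscle arrays, where Contig[0113] and Contig[0222] alone gave 1.58% and 1.47%. These shares come from the deposited ratios with no background removed, and a share at or below that of the probes themselves is that of dim spots. The deposited table divides by the array mean, so that a ratio there depends on every spot of its array. Column medians were 0.417, 0.303, 0.272 and 0.306 in immature and 0.457, 0.456, 0.247 and 0.304 in calcium replicates 1 to 4. On that table as deposited, the median log2 difference over all 493 sequences was 0.17, against 0.041 under quantile scaling. Differences there are to be read relative to 0.17, and the cause of this shift was not tested.

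**Figure D3:**
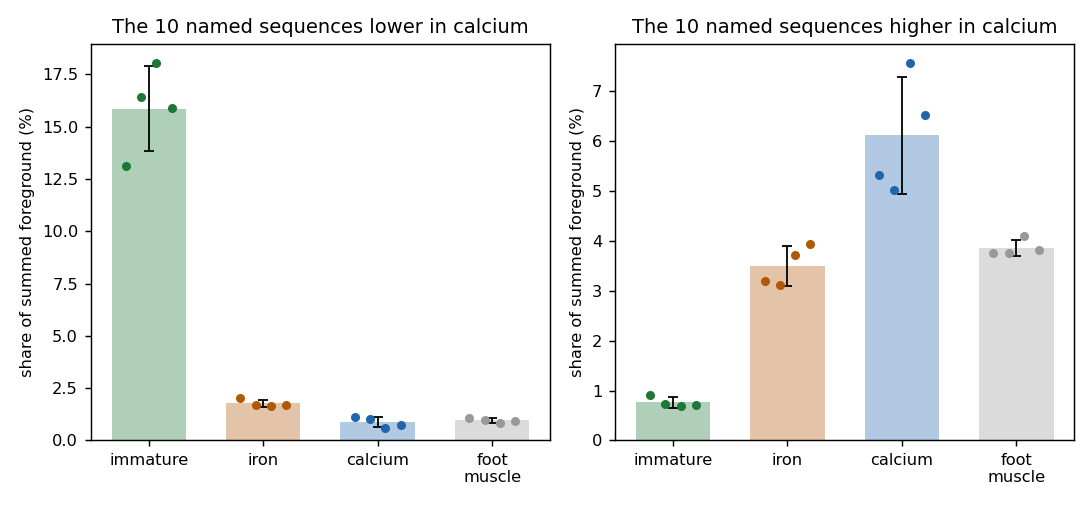
Bars are means and error bars SDs over 4 arrays of the percentage of an array's summed foreground, and points are single arrays. The 10 sequences lower in calcium take up 13.1% to 18.0% in immature arrays and under 2.1% in each array of the other tissues, and the 10 higher in calcium reach 5.03% to 7.57% in calcium arrays against at most 0.917% in immature arrays, with 3.12% to 3.94% in iron and 3.76% to 4.10% in foot muscle arrays.

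In called sequences, the probes that were called moved the same way as their sequence, and their differences varied in size. Of 183 called sequences, 77 had every probe called in that direction (39 higher, 38 lower), 103 had some of their probes called, 3 had none, and 0 had a probe called the opposite way. Over probes, limma called 622 of 2240 (27.8%), 361 higher (16.1%) and 261 lower (11.7%), and without the disputed arrays 217 higher and 212 lower. Cyclic loess gave 248 higher and 307 lower. Among the named falls, the probes of Contig[0010] ranged from a 26.8-fold to a 131-fold difference, and those of Contig[0054] from 56.0- to 107-fold. The 131-fold probe of Contig[0010], at bases 1258 to 1292, was the second brightest spot of every immature array, and quantile scaling therefore gave it the same level there. Its mean foreground was at 73.2%, 95.8%, 93.8% and 94.6% of the scanner maximum in immature replicates 1 to 4. Whether some of its pixels were saturated was not tested, and its fold is limited by that ceiling and by its rank. Plate-C-E7-5-SMART had 4 probes between 8.19- and 14.1-fold lower and 1, at bases 3 to 37, that was 1.45-fold lower. That probe was at 10.10 ± 0.09 (SD, n = 4) in immature and 9.57 in calcium arrays. Among the named rises, Plate-D-B4-5-SMART ranged from 1.75-fold at bases 361 to 395 to 18.4-fold at bases 141 to 175, and Plate-B-C9-5-SMART stayed between 4.68- and 6.94-fold.

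The probe that differed most lay at any place along a sequence. In the 114 called sequences with 5 probes, the largest difference fell on the first probe in 23, the second in 23, the third in 26, the fourth in 22 and the fifth in 20. The median absolute log2 difference by probe order lay between 0.76 and 0.86.

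**Figure D4:**
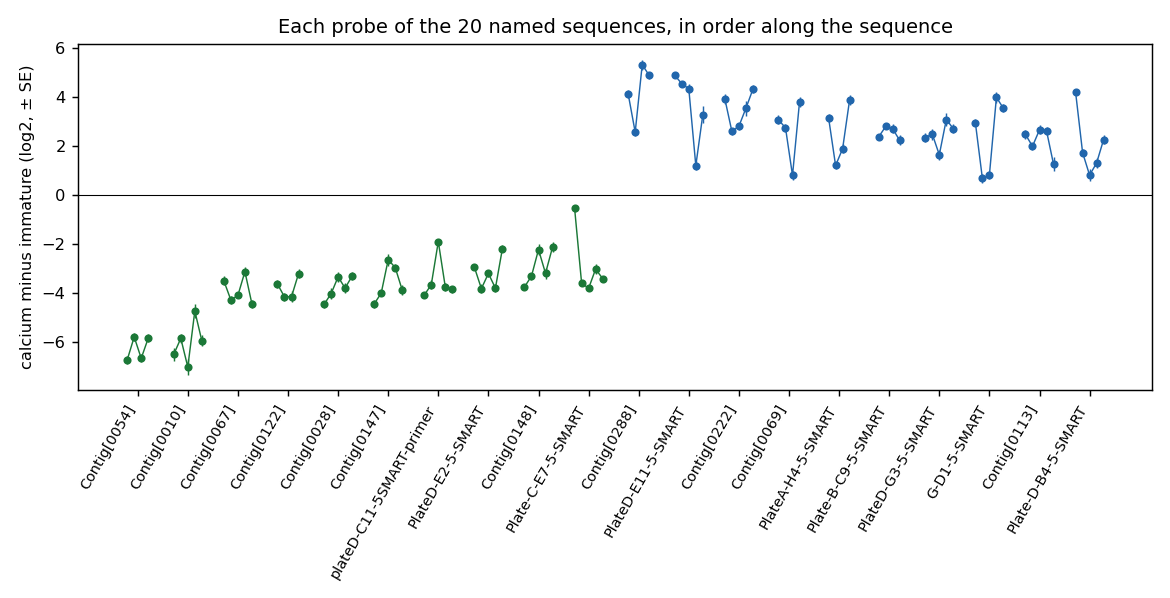
Points are the calcium minus immature differences (log2, error bars ± SE from the limma fit) of single probes, joined in their order along each of the 20 named sequences. The choice of named sequences required all 94 probes to lie on the side of their sequence. Single probes near zero, such as the first of Plate-C-E7-5-SMART at -0.54, stand beside probes of the same sequence beyond -3.

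A single sequence, Contig[0254], had probes called in both directions and was not called as a whole (log2 -0.066, SE 0.087). Its probe at bases 289 to 323 went from 7.35 ± 0.12 (SD, n = 4) in immature to 7.79 ± 0.23 in calcium arrays (limma adjusted p = 0.0124). The probe starting at base 477 went from 7.41 ± 0.04 to 6.25 ± 0.12 (limma adjusted p = 1.46e-07). The latter probe was also low in iron, at 6.20 ± 0.07, and in foot muscle, at 6.31 ± 0.23. Its deposited ratios were 0.420, 0.299, 0.282 and 0.314 in immature and 0.346, 0.352, 0.152 and 0.161 in calcium replicates 1 to 4. Those of the probe at bases 289 to 323 were 0.4035, 0.296, 0.289 and 0.285 and 0.501, 0.483, 0.387 and 0.381. Both spots were thus dim, and the tissues overlapped in the deposited ratios. Both probes are shown so that the part of the contig each reads can be found.
Contig[0254], bases 289 to 323: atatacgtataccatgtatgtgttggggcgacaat
Contig[0254], bases 477 to 511: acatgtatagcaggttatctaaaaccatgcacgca

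Some deposited sequences may be copies or relatives of each other, so that a count of sequences is not a count of genes. Probes of 15 sequences shared a run of at least 20 bases with a probe of another sequence, in 11 pairs, and 11 of the 15 were called, against 37.1% of all sequences. None of the 20 named sequences was among them. Contig[0041], Contig[0258], PlateC-C10-5-SMART and PlateF-A10-5-SMART were linked by such runs and all rose, by 1.90, 1.43, 1.92 and 1.78 on the log2 scale (limma adjusted p of 9.45e-08 or lower). Contig[0018] and Contig[0110] shared 20 bases and fell by 1.31 and 1.38. These sequences were singled out after their values were seen, and reads of near-identical transcripts by each other's probes were not tested. A pair of probes that share 30 bases is shown, with the shared run in capitals.
Contig[0258], bases 320 to 356: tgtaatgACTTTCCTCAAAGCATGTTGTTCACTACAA
PlateF-A10-5-SMART, bases 350 to 384: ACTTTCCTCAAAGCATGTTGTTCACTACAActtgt

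Contigs were called more often than single clones, and they were also brighter. Of 109 contigs, 79 were called (72.5%), 45 higher and 34 lower, and of 384 clones 104 (27.1%), 73 higher and 31 lower, against 37.1% of all sequences. With the disputed arrays left out, 71 contigs (65.1%) and 85 clones (22.1%) were called. The median level over all arrays was 8.43 for contigs and 7.42 for clones. Among the 123 brightest sequences by mean over all arrays, 89.7% of 58 contigs and 78.5% of 65 clones were called. In the next 123, the shares were 73.9% of 23 contigs and 34.0% of 100 clones, and in the 123 after those 33.3% of 24 and 10.1% of 99. Contigs were called more often than clones within each of these ranges, which did not make their brightness equal. Median levels of contigs and clones were 9.46 and 9.04 in the brightest range, 8.07 and 7.89 in the next and 7.30 and 7.29 in the one after. Among the 124 dimmest, 11 were called (8.87%), and 120 of these 124 were clones. Among the 123 brightest sequences, 75 were higher and 28 lower in calcium, with 31 and 21 among the contigs and 44 and 7 among the clones. Their median log2 difference was 0.48, against 0.011 to 0.042 in the other ranges of brightness. Cyclic loess scaling kept 80 of the 118 higher and 65 of the 65 lower calls over all sequences. Whether the excess of rises in the brightest range depends on the scaling was not tested. The probes of a sequence had a median GC content of 42.2% for higher, 42.9% for lower and 41.5% for uncalled sequences.

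Over all called sequences, those that fell had a median in the last stage near their own median in foot muscle. Sequences called lower had a median level of 9.42 in immature, 8.20 in iron, 7.63 in calcium and 7.52 in foot muscle arrays. Sequences called higher had medians of 8.22, 8.83, 9.15 and 8.60 in the same order, and the 310 uncalled sequences 7.17, 7.17, 7.22 and 7.39. Closeness at such low levels does not show equal amounts of RNA. The medians of immature and calcium arrays follow from the calls, whereas the iron and foot muscle arrays took no part in choosing the direction.

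**Figure D5:**
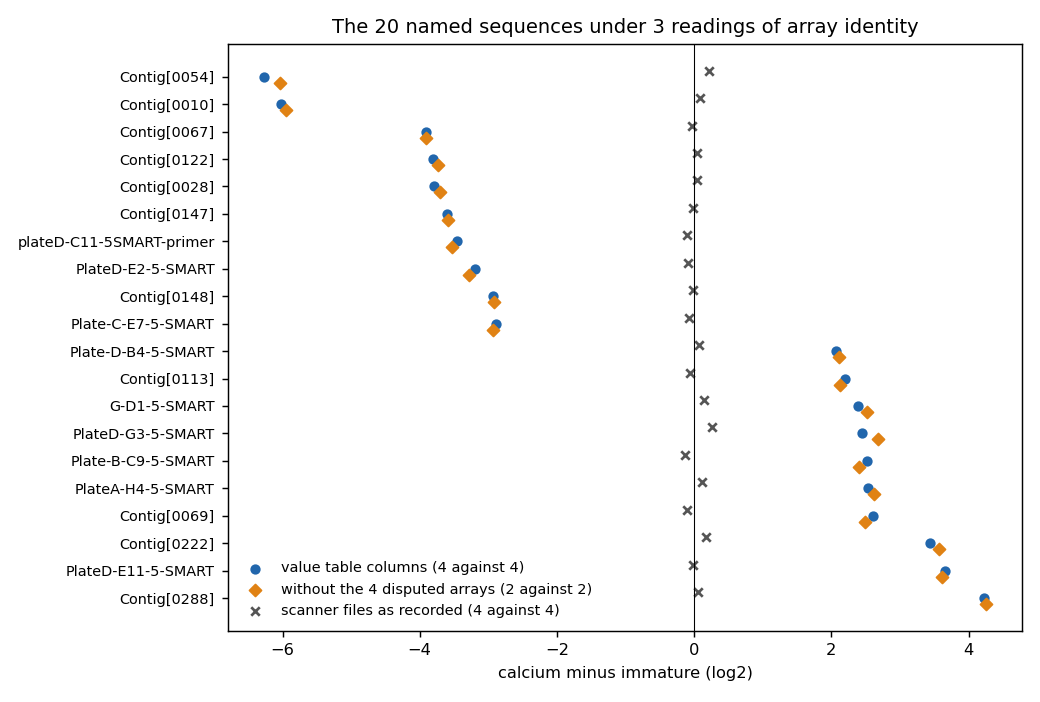
Each of the 20 named sequences is shown with its calcium minus immature difference (log2) with the value table's columns (circles), without the 4 disputed arrays (diamonds) and with the scanner files as recorded (crosses). Circles and diamonds lie side by side, between -6.27 and 4.26, whereas crosses lie between -0.13 and 0.27.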

How the data were processed

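Single-colour arrays of 16 pools were analysed. Per the file headers, scanner tables held the mean and median foreground intensity of each spot, with no background column. The authors' deposited value table held a ratio, which from its values was each spot's mean foreground divided by the array mean, with column medians of 0.247 to 0.457. The spot extraction software is not given in the sources used here. Every value-table column was put back on the intensity scale with the mean of the scanner file it matched, then background-corrected by normexp with an offset of 50, taken to log2 and quantile-scaled in R 4.3.3 with limma 3.58.1. Probes were averaged per sequence. The model had 1 mean for each tissue and used all 16 arrays, with eBayes (two-sided) and Benjamini-Hochberg adjustment over all 493 sequences, or all 2240 probes. Named sequences had at least 3 probes, all called one way, and arrays that did not overlap, and the 10 largest differences in each direction were taken. The fit was tested on simulated data. The comparison, its array assignment and these rules were chosen with earlier results of these data known. Whether same-numbered pools held the same animals is not stated, and p-values measure the spread between arrays. Arrays give no depth, and their number limits the precision. Alternatives covered background correction, scaling, spot summary, dim probes, blocks, weights, array identity and each array left out.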

Additional observations from a re-analysis of the deposited data

How the results depend on the processing

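With the scanner files as recorded, limma called 0 sequences and 0 probes between calcium and immature, 57 sequences between iron and immature and 56 between calcium and iron. There the log2 difference changed sign to 0.22 for Contig[0054], 0.078 for Contig[0010], 0.045 for Contig[0122], 0.047 for Contig[0028], -0.017 for PlateD-E11-5-SMART, -0.11 for Contig[0069], -0.13 for Plate-B-C9-5-SMART and -0.055 for Contig[0113], and none of the 20 named sequences was called (adjusted p = 0.999). On the deposited table with no further scaling, 86 of the 118 higher and 44 of the 65 lower calls for calcium against immature were kept. There 1 further sequence was called higher. Calls on that table numbered 96 for iron against immature and 102 for calcium against iron, and the cause was not tested. In the 15 other settings and with each of the 16 arrays left out, all 20 named sequences stayed called in their direction. Leaving out 1 array gave 174 to 187 sequences and 571 to 628 probes for calcium against immature, 132 to 152 sequences for iron against immature and 153 to 169 for calcium against iron. For calcium against iron, cyclic loess gave 56 higher and 77 lower, against 97 and 67. Deviations of same-numbered calcium and immature arrays correlated at 0.45, 0.57 and 0.38 for replicates 1, 3 and 4 and at -0.094 for replicate 2. Differently numbered arrays correlated at -0.66 to 0.59, the highest for calcium 4 with immature 2, and at 0.39 for calcium 2 with immature 4. The arrays of these last pairs are the disputed ones. The 2 arrays of each also carried the same array number in the scanner files they matched. Calcium 1 with immature 3 and calcium 3 with immature 1 shared an array number too, and they correlated at -0.30 and -0.083. With the array number as a block, 118 higher and 65 lower calls were kept, and 3 and 2 were added. Not every same-numbered pair of replicates passed 0.1, so the replicate numbers were not taken to pair the arrays. Pools share animals, but which pools do so is not stated. With the replicate number as a block, 217 sequences and 789 probes were called. With no background correction, 12 of the 20 named folds moved by over 1.5 times, and with the median over probes PlateD-E11-5-SMART went from 3.65 to 4.34 on the log2 scale. Without background measurements, changes of dim probes were not resolved.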
